A study of Mus musculus with 11 samples.

Results

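Reads of PU.1 ChIP-Seq were counted over the mouse β- and α-globin gene clusters, which were chosen by position and not by any measured value. The β-globin region ran from 50 kb downstream of Hbb-b2 to 50 kb upstream of Hbb-y on chromosome 7 (mm9 positions 110911038 to 111051754) and held the genes Hbb-y, Hbb-bh1, Hbb-b1 and Hbb-b2 with the locus control region upstream of Hbb-y. The α-globin region ran from 50 kb upstream of Hba-x to 50 kb downstream of Hba-a2 on chromosome 11 (positions 32126400 to 32247301) and held Hba-x, Hba-a1 and Hba-a2. Together the regions made up 524 of the 5309802 windows of 500 bp in the genome, 282 in the β-globin region and 242 in the α-globin region, and 228 of them held the 10 or more reads over all libraries that a test required. Of the 7 globin gene starts 5 were among the 21453 protein-coding gene starts with at least 1 read, and those of Hba-a1 and Hba-a2 held none.

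Hemoglobin is built from α-like and β-like globin chains. Each cluster carries embryonic genes (Hbb-y, Hbb-bh1 and Hba-x) followed by adult genes (Hbb-b1, Hbb-b2, Hba-a1 and Hba-a2). In erythroid cells the β cluster is driven by the locus control region, a row of DNase I hypersensitive sites of which HS2 is a strong enhancer. The α cluster is driven by enhancers, most of which lie inside the introns of the neighbouring gene Nprl3. PU.1, encoded by Sfpi1, is an ETS family transcription factor that binds purine-rich sequence with a GGAA core, keeps immature erythroid cells from differentiating when its level stays high, and is known to interact with GATA-1, the erythroid factor that binds AGATAA-like sites.

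MEL cells are murine erythroleukemia cells, here a puromycin-selected clone (clone 4 in the labels, clone DS19 in the methods) that stably expresses GATA-1 fused to the ligand-binding domain of the estrogen receptor (ER). ES-EP are non-leukemic erythroid progenitors derived from ES cells and kept dividing with Epogen, IGF-1, dexamethasone and murine SCF. In each cell type chromatin was immunoprecipitated with the anti-PU.1 antibody T-21, and 2 preparations (A and B) were sequenced as 2 libraries each, with 1 input library for MEL cells and 2 for ES-EP. Placed reads numbered 5697937 and 6987141 in the MEL preparations A and B, 6284725 and 7095855 in the ES-EP ones, and 4278560 and 7488885 in the respective inputs, so that an average window of 500 bp held between 0.806 and 1.41 reads. ChIP reads of a preparation were set against the input of its cell type scaled to the same depth, and a ratio is the one over the other. The clone, the fusion protein, the culture medium and leukemic origin all separate the cell types and cannot be told apart, and neither can binding in fewer cells and weaker binding in each cell.

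The sequences that carry the results are given first, all from the plus strand of the NCBIM37 assembly, which is mm9, unless stated. The stretch with the most ChIP reads of the β-globin region lies in HS2, 7.77 kb upstream of the start of Hbb-y and in no annotated gene. Capitals mark the PU box GAGGAAGT, here read from the minus strand as ACTTCCTC, and a pair of GCTGAGTCA words, the form that NF-E2 is known to bind, also read from the minus strand.
HS2, chr7:111009422-111009721: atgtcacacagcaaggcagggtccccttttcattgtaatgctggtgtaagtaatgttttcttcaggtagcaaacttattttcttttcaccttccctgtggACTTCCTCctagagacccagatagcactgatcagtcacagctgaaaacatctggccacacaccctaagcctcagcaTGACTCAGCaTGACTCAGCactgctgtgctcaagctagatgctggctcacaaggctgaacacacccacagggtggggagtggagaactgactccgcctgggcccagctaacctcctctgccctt
The PU box occupies positions 111009522 to 111009529, and the NF-E2 words begin 69 and 79 bp past its last base. Of all 500 bp windows of the genome without unknown bases, 3.01% held GAGGAAGT on either strand and 0.587% held GCTGAGTCA, a word that was added after the HS2 sequence had been seen. A further stretch, upstream in the next window, held a GAGGAA word, in capitals on the minus strand, and an AGATAA word.
Stretch upstream of HS2, chr7:111010222-111010341: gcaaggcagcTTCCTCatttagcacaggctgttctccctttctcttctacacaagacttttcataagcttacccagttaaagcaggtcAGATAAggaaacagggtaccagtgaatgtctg
In the α-globin region 3 PU boxes had more ChIP than input reads past the threshold in ES-EP A, of which 2 are described here and shown with GAGGAAGT in capitals. The first is in an intron of Nprl3, 25.9 kb upstream of the start of Hba-x, close to the enhancer that is named for its distance of 26 kb, and the other is intergenic, 7.43 kb downstream of the start of Hba-a2.
Intron of Nprl3, chr11:32150402-32150551: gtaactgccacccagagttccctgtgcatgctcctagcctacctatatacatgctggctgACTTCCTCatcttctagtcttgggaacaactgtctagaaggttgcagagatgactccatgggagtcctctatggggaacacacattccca
Downstream of Hba-a2, chr11:32203855-32204004: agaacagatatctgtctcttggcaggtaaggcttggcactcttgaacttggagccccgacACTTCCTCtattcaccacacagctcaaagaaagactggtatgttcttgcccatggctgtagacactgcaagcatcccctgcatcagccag
The window with the most reads of the α-globin region lay on the start of Nprl3 and held no GAGGAAGT. Its 2 GAGGAA words, in capitals, are in the annotated 5′ UTR of the first exon.
Nprl3 exon, first word, chr11:32167556-32167585: gcgtgcgcctgaGAGGAActcgcgtaggga
Nprl3 exon, second word, chr11:32167615-32167644: cgcagggacacgGAGGAAgccggcacctcg

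The adult genes are near-identical copies, and reads were kept by the authors only where they aligned to a single place. The coding starts of Hba-a1 and Hba-a2 are shown because they were identical over the 90 bases compared, as were those of Hbb-b1 and Hbb-b2, for which the gene strand (minus) is given and 1 copy is printed of each pair.
Hba-a1, chr11:32183707-32183796: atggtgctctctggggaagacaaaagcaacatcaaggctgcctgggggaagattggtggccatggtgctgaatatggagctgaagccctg
Hbb-b1, chr7:110976300-110976389: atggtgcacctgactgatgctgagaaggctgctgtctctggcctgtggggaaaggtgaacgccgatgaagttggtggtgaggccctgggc
The longest identical stretch was 671 bp between Hba-a1 and Hba-a2 and 906 bp between Hbb-b1 and Hbb-b2. Of all 27-base words that begin in the gene, 2.37% were unique in the genome for Hba-a1, 3.43% for Hba-a2, 28.8% for Hbb-b1 and 24.4% for Hbb-b2, whereas the embryonic genes Hbb-y, Hbb-bh1 and Hba-x had 100, 100 and 95.5%. In the 500 bp on the gene start the unique share was 96.4% for Hbb-b1 and 77.6% for Hbb-b2 but 11% for Hba-a1 and 0 for Hba-a2. A count of 0 at the adult α-globin genes therefore cannot be read as absence of PU.1. In the β-globin region 52 of 282 windows had fewer than 50% of read positions unique, and in the α-globin region 16 of 242.

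No globin gene start was called for PU.1 reads above input. In 500 bp on the start, 0 of the 5 members with reads passed the exact binomial test in any preparation, against 2.76% of all gene starts with reads in MEL A, 16.3% in MEL B, 13.2% in ES-EP A and 4.11% in ES-EP B, and against 2.73% in both MEL preparations and 3.98% in both ES-EP preparations. A gene start counted as called when the ratio was above 1 and the Benjamini-Hochberg adjusted p over all starts was below 0.05. Hba-a1 and Hba-a2, with no read, could not be tested. Without adjustment, at p below 0.05, none of the 5 had a ratio above 1 in any preparation.
The start of Hbb-y, an embryonic β-like gene, held 3 reads in MEL A and 2 in MEL B against 1 in the input, and 0 in ES-EP A and 3 in ES-EP B against 1. At Hbb-bh1, the other embryonic β-like gene, there were 2 and 1 ChIP reads in MEL cells with 5 in the input, and 1 and 5 in ES-EP with 6. Both embryonic β-like starts held few reads in ChIP and input alike, and the preparations overlapped between the cell types. Hbb-bh1 in MEL B lay below input without adjustment (ratio 0.122, p = 0.0324, exact binomial test) but not after it (adjusted p = 0.134).
Hbb-b1 and Hbb-b2 encode the adult β chains. Hbb-b1 had 1 and 1 reads in the MEL preparations (input 1) and 0 and 3 in the ES-EP ones (input 4). Hbb-b2 had 4 and 3 reads in the MEL preparations (input 4) and 3 and 2 in the ES-EP ones (input 1). Neither start stood apart from its input, and the cell types overlapped at Hbb-b1.
Hba-x, the embryonic α-like gene, had 2 and 4 reads in the MEL preparations (input 1) and 0 and 3 in the ES-EP ones (input 2), and Hba-a1 and Hba-a2 had 0 reads in every ChIP and input library. Across the members the ChIP reads per preparation ran from 0 to 5 and the input reads from 0 to 6, while over all tested starts the median was 3 (A) and 6 (B) for MEL and 4 (A) and 5 (B) for ES-EP. With 1000 bp around the start no member was called. Below input there were Hbb-bh1 in MEL B (1 read against 8, adjusted p = 0.0144, exact binomial test) and Hba-x in ES-EP A (0 against 9, adjusted p = 0.0323). The other preparation did not pass in either case (Hbb-bh1 in MEL A 4 against 8, Hba-x in ES-EP B 4 against 9). With 4000 bp around the start, Hbb-b2 alone of the 7 was called, in both ES-EP preparations, as were 4.83% of all starts at that width (3.95% in both MEL preparations). It had 27 (A) and 21 (B) ChIP reads there against 5 input reads, and 24 and 29 against 14 in MEL cells. The ES-EP input was sequenced more deeply than the MEL input but held fewer reads there, and its part in the call was not tested. Those 4000 bp also took in a PU box 1.63 kb downstream of the start, which was called in no preparation.

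**Figure D1:**
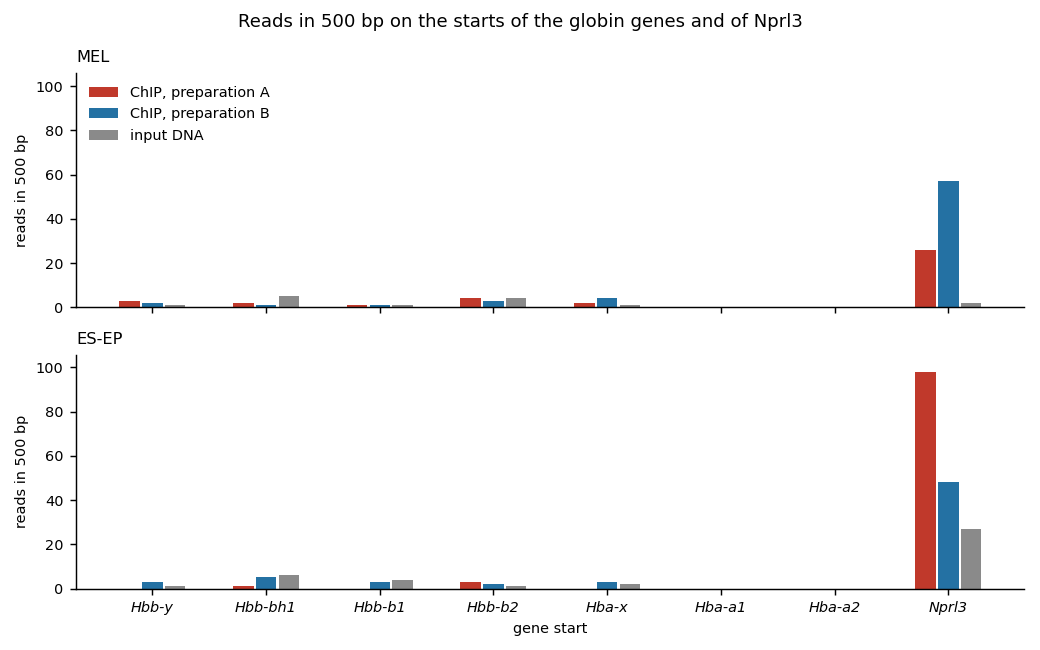
Reads in the 500 bp on the start of each of the 7 globin genes and of Nprl3, as bars per preparation and input (upper panel MEL, lower panel ES-EP). The globin starts hold at most 6 reads in any bar, Hba-a1 and Hba-a2 hold 0, and Nprl3 holds between 26 and 98 ChIP reads, with 2 input reads for MEL and 27 for ES-EP.

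In the locus control region PU.1 reads passed the test over input at HS2 in ES-EP, and at its PU box they did so in both ES-EP preparations. The MEL preparations did not pass there in the exact binomial test. MEL B passed in the HS2 window only under the local input setting (adjusted p = 0.0347, one-sided Poisson test). That setting takes the largest of the window's own input, the 10 kb mean and the genome mean. The ratio stayed at 2.1, so the surrounding input did not change it. The difference between the cell types, tested below with limma, did not pass either. On the fixed grid 3 windows of the β-globin region were called in ES-EP A, where 0.644% of all 1266017 tested windows were called, and 0 in ES-EP B (0.181% of all), in MEL A (0.147%) and in MEL B (0.378%). No window of the β-globin region was therefore called in both preparations of ES-EP (0.176% of all windows) or of MEL cells (0.127%).
The study's quantitative PCR used an amplicon in HS2 as its positive control for PU.1 in both MEL cells and ES-EP. The window that holds this amplicon had 8 and 20 reads in libraries A1 and A2 of ES-EP, 5 and 10 in B1 and B2, and 3 and 2 in the inputs. In MEL cells it had 1 and 8 reads in A1 and A2, 9 and 15 in B1 and B2, and 7 in the input. The ratio was 6.67 in ES-EP A (95% exact interval 2.54 to 22.1, adjusted p = 0.00113 in the exact binomial test) and 3.17 in ES-EP B (1.09 to 11.1), and in MEL cells it was 0.965 in A (0.32 to 3.05) and 2.1 in B (0.878 to 5.77). The call in ES-EP A was lost with library A1 alone (ratio 5.09, adjusted p = 0.127, exact binomial test). It was kept with library A2 alone (ratio 7.62, adjusted p = 0.000586). A1 is the smaller library, with 2352843 placed reads next to 3931882 in A2. On a grid moved by 250 bp the window over the PU box was called in ES-EP A (ratio 17.5, adjusted p = 2.06e-09, exact binomial test) and the window beyond it, which holds the former centre, was not (adjusted p = 0.399). In windows of 200 bp the one over the PU box was called in both ES-EP preparations (adjusted p = 1.51e-08 in A and 0.0108 in B, exact binomial test) and the 2 beyond it were not, and neither setting called MEL A or MEL B. With limma, which uses the spread between preparations, ES-EP ChIP exceeded ES-EP input there by 2.07 on the log2 scale (SE 0.65) with an adjusted p of 0.509.
ChIP reads in this window stood at 17.1 times the genome mean in ES-EP and at 13.8 times in MEL cells, while the input stood at 3.55 and 8.69 times. A MEL input of 7 or more reads was found in 0.299% of all windows, and its part in the low MEL ratio was not tested. With 5 input reads, as in ES-EP, ES-EP A needed 22 ChIP reads to pass and ES-EP B 26. At 5 input reads MEL B would have needed 39 and MEL A 34. The MEL input held 7, and at 8 input reads MEL B would have needed 48 and MEL A 42.

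A border of the fixed grid lies just beside the PU box and divides the reads of HS2 between neighbouring windows, so the 500 bp centred on each GAGGAAGT of the genome were also tested, a choice made after the profile had been seen. Of 144276 such sites with reads, 2.42% were called in ES-EP A, 0.875% in ES-EP B, 0.81% in MEL A and 1.17% in MEL B.
Around the PU box of HS2 there were 15, 29, 5 and 16 reads in the ES-EP libraries A1, A2, B1 and B2 against 1 and 1 in the inputs, and 1, 13, 15 and 20 in the MEL libraries A1, A2, B1 and B2 against 6 in the input. Both ES-EP preparations were called, with ratios of 26.2 in A (95% exact interval 6.84 to 223, adjusted p = 6.87e-11, exact binomial test) and 11.1 in B (2.71 to 97.5, adjusted p = 0.00423). In MEL cells the ratios of 1.75 in A (0.633 to 5.56) and 3.57 in B (1.49 to 10.4, adjusted p = 0.124, exact binomial test) did not pass. The MEL library A1 was the lowest of the 8 ChIP libraries, with 1 read.
Of the 12 PU boxes of the β-globin region with reads, HS2 was the only one called in both ES-EP preparations, where 0.848% of all sites were called, and none was called in both MEL preparations (0.693% of all sites). With at most 1 read per position and strand HS2 was again called in both ES-EP preparations, with 39 and 18 reads against 2.
The larger share of the ChIP reads near HS2 lay at the PU box. Within 150 bp of it lay 42 of the 63 ES-EP A reads found within 1000 bp, 21 of 35 in ES-EP B, 33 of 49 in MEL B and 14 of 25 in MEL A, compared with 2 of 12 in the ES-EP input and 6 of 14 in the MEL input. The single bin of 50 bp with the most reads adjoined the PU box in ES-EP A (19 reads) and MEL B (12), whereas in ES-EP B it lay 650 to 700 bp upstream (9 reads). In the 500 bp window on the grid the median 5′ end of reverse reads lay 105 bp past that of forward reads in ES-EP A and 98 bp in ES-EP B. The distance was 171 bp in MEL A and 165 bp in MEL B. Reads were chosen by their shifted position, and the strands are shifted in opposite directions. Evenly spread reads would therefore also have forward reads first, so this order does not set bound from unbound sequence apart.

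**Figure D2:**
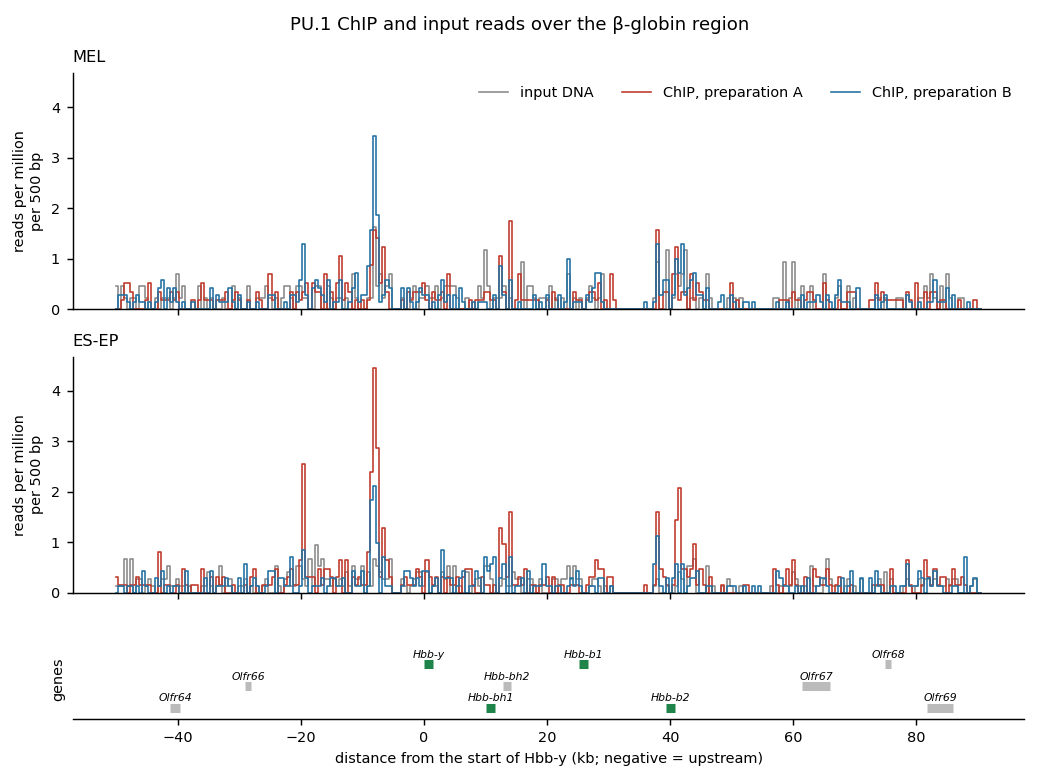
Depth-scaled reads per 500 bp window over the β-globin region against the distance from the start of Hbb-y in kb (negative is upstream), for ChIP preparations A and B and input in MEL cells (top) and ES-EP (middle), with protein-coding genes below and globin members in green. The window of HS2, centred 8 kb upstream of Hbb-y, is the tallest of MEL B (24 reads), ES-EP A (28) and ES-EP B (15), while MEL A has 9 reads there and 10 in its tallest window, and stretches at 0 include windows with few unique read positions.

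The other called windows of the β-globin region lay next to HS2 and farther out in the control region. The window from 8.25 to 8.75 kb upstream of Hbb-y, with the GAGGAA and AGATAA words shown above, had 4 and 11 reads in ES-EP A1 and A2, 3 and 10 in B1 and B2, and 0 and 1 in the inputs, and 2, 3, 0 and 11 in the MEL libraries with 1 in the input. Its ratio was 17.9 in ES-EP A (95% exact interval 2.75 to 752, adjusted p = 0.0223, exact binomial test), 13.7 in ES-EP B (2.06 to 583), 3.75 in MEL A (0.42 to 178) and 6.74 in MEL B (0.979 to 290). Its call in ES-EP A was lost with library A1 alone (adjusted p = 0.274, exact binomial test), without the shift of reads (adjusted p = 0.17), when windows with 1 or more reads were tested (adjusted p = 0.0826) and on the other grids. With library A2 alone the call was kept (ratio 21, adjusted p = 0.00713, exact binomial test).
A window centred 19.5 kb upstream of Hbb-y had 6 and 10 reads in ES-EP A1 and A2, 3 and 3 in B1 and B2, and 0 and 2 in the inputs, with 1, 1, 3 and 6 in the MEL libraries against 1, and held none of the words GAGGAAGT, GAGGAA and AGATAA. Its ratio of 9.53 in ES-EP A (2.24 to 85.5) passed with an adjusted p of 0.0314 in the exact binomial test, but 14 of its 16 reads were forward and up to 3 shared a position in a library. The ratio was 3.17 in ES-EP B (0.566 to 32.1), 1.5 in MEL A (0.0782 to 88.6) and 5.51 in MEL B (0.764 to 242). With at most 1 read per position and strand (adjusted p = 0.249, exact binomial test), with either library alone, with windows of 1 or more reads and in windows of 1000 bp it was not called, while in windows of 200 bp 1 of those it overlaps was called in ES-EP A (14 reads against 0, adjusted p = 0.000929, exact binomial test).
In steps of 10 kb upstream of Hbb-y the first, which holds HS2, had a ratio of 2.9 in ES-EP A (1.98 to 4.33), 1.65 in ES-EP B (1.09 to 2.53), 1.89 in MEL B (1.19 to 3.09) and 1.38 in MEL A (0.831 to 2.35). The second step had 1.12 and 0.548 in ES-EP and 1.64 and 1.8 in MEL cells, so that MEL A was the one preparation without its highest ratio in the first step. From 20 to 50 kb upstream every preparation stayed between 0.516 and 1.19. The genes from Hbb-b2 to Hbb-y had ratios of 1.54 and 1.3 in ES-EP, next to 0.933 and 0.803 for MEL. They rest on 115 and 110 ChIP reads against 89 input reads for ES-EP, and on 92 and 97 against 74 for MEL. Scaled to the depth of the libraries the ChIP levels overlapped between the cell types (ES-EP A, MEL A, ES-EP B and MEL B from high to low), and the MEL input stood at 1.46 times the ES-EP input. The olfactory receptor flank beyond Hbb-b2 had a like ratio in ES-EP A (1.43) and 0.969 in ES-EP B.

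In the α-globin region the most PU.1 reads lay on the start of Nprl3, whose protein belongs to a complex that restrains mTORC1 and whose introns hold most of the α-globin enhancers. The window had 21 and 73 reads in ES-EP A1 and A2, 7 and 38 in B1 and B2 and 10 and 16 in the ES-EP inputs, and 12, 14, 21 and 34 in MEL A1, A2, B1 and B2 with 2 in the MEL input. It was the only window of the α-globin region called in MEL A (ratio 9.76, 95% exact interval 2.44 to 84.9, adjusted p = 0.0391, exact binomial test), in MEL B (16.8, 4.45 to 143, adjusted p = 1.4e-06) and in ES-EP A (4.31, 2.77 to 6.93, adjusted p = 3.23e-10), and it was not called in ES-EP B (1.83, 1.1 to 3.08). It was thus called in both MEL preparations, 1 window of 158 tested, next to 0.127% of all windows. The 26 reads of MEL A were the fewest that pass with 2 input reads, and with at most 1 read per position and strand MEL A missed (adjusted p = 0.0605, exact binomial test). The ES-EP A ratio was 2.57 with library A1 alone, which did not pass (adjusted p = 0.0719, exact binomial test), and 5.35 with A2 alone, which did.
The ChIP reads were at 55.2 times the genome mean in ES-EP and 33.9 times in MEL cells. The ES-EP input alone was at 18.4 times the mean, a level reached by 0.051% of all windows, and the MEL input at 2.48 times. The preparations overlapped, with 94 reads in ES-EP A, 55 in MEL B, 45 in ES-EP B and 26 in MEL A. The part of the ES-EP input in the ES-EP ratio was not tested.
The reads peaked inside the gene, in the 50 bp from 100 to 150 bp past the start in MEL A (16 reads), MEL B (20) and ES-EP B (14) and from 50 to 100 bp in ES-EP A (36), over the exon with the GAGGAA words. Tested as a gene start, Nprl3 was again called in MEL A, MEL B and ES-EP A and was the only 1 of the 10 other protein-coding genes of the regions called in both preparations of a cell type.

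**Figure D3:**
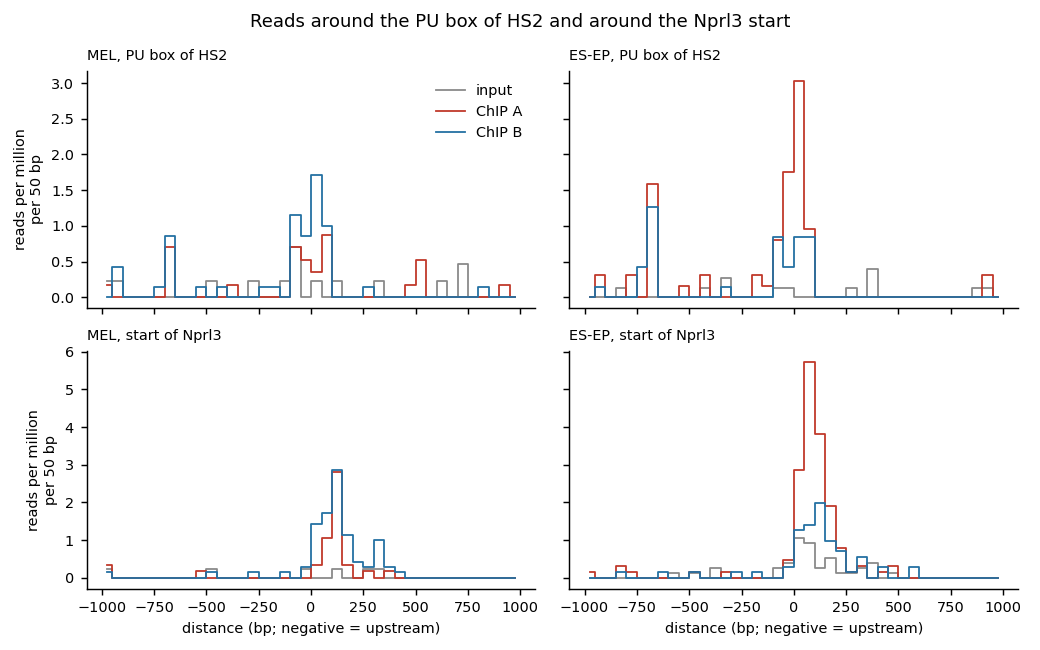
Depth-scaled reads in bins of 50 bp within 1000 bp of the PU box of HS2 (top) and of the Nprl3 start (bottom), by preparation and input, with MEL panels at left, ES-EP panels at right and negative distances upstream on the gene strand. ChIP reads gather within 150 bp of the PU box, with a further bin of 9 reads 650 to 700 bp upstream in ES-EP B, and just past the Nprl3 start, where the ES-EP input also rises.

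**Figure D4:**
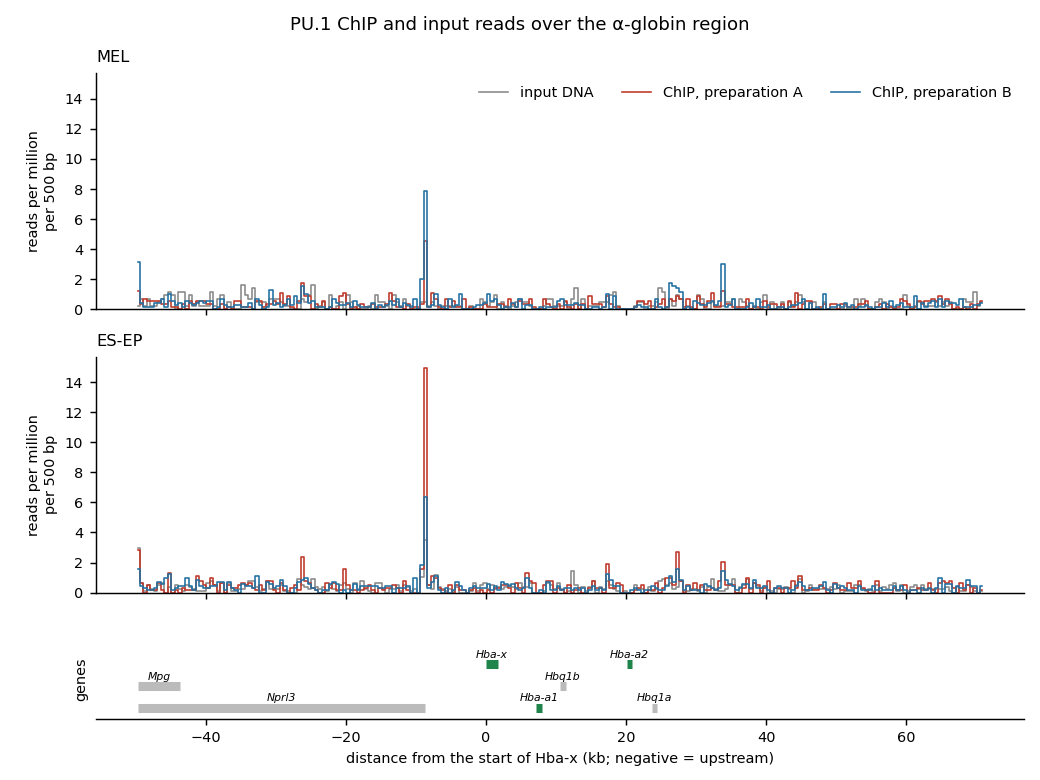
Depth-scaled reads per 500 bp window over the α-globin region against the distance from the start of Hba-x in kb (negative is upstream), for ChIP preparations A and B and input in MEL cells (top) and ES-EP (middle), with protein-coding genes below and globin members in green. The window on the Nprl3 start, 8.65 kb upstream of Hba-x, is the tallest of every ChIP track, and smaller peaks of reads include PU boxes 25.9 kb upstream and 27.5 kb downstream and a window 49.7 kb upstream that was not called.

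The enhancers of the α cluster are named by their distance upstream of Hba-x. In 1 kb around the point 26 kb upstream there were 14 and 19 reads in MEL A and B against 4 in the input, and 20 and 15 in ES-EP A and B against 8. The ratio was 2.63 in MEL A (95% exact interval 0.825 to 11), 2.91 in MEL B (0.967 to 11.8), 2.98 in ES-EP A (1.26 to 7.82) and 1.98 in ES-EP B (0.788 to 5.39).
At the points 8, 12, 21 and 31 kb upstream no preparation had more than 10 reads in 1 kb, the input had between 3 and 8, and the ratios ran from 0.25 to 1.79. The point at 26 kb was the only 1 of the 5 with a ratio above 1.9 in each of the 4 preparations.
The 500 bp on the PU box 25.9 kb upstream of Hba-x were counted too. They held 3, 16, 6 and 6 reads in the ES-EP libraries A1, A2, B1 and B2 against 3 in the input. The MEL libraries held 4, 8, 8 and 8 against 3. The ratio was 7.55 in ES-EP A (2.22 to 39.8, adjusted p = 0.00709, exact binomial test), 4.22 in ES-EP B, 3 in MEL A and 3.27 in MEL B, and only the first passed.
The PU box 7.43 kb downstream of the Hba-a2 start, past the θ-like gene Hbq1a, had 9, 8, 5 and 8 reads in ES-EP against 3, and 1, 5, 5 and 5 in MEL cells against 2. Its ratio in ES-EP A was 6.75 (1.95 to 36, adjusted p = 0.0204, exact binomial test).
At both sites ES-EP B and the MEL preparations had the same direction, a ratio above 1, without passing.
Of the 20 PU boxes of both regions 18 had reads, and 4 were called in ES-EP A (2.42% of all PU boxes with reads), 1 in ES-EP B (0.875%) and 0 in MEL A (0.81%) or MEL B (1.17%). At the 16 sites not called in any preparation the ChIP reads ran from 0 to 10 and the input from 0 to 6. GAGGAAGT was found in 14 of 282 windows of the β-globin region (4.96%) and 6 of 242 of the α-globin region (2.48%), next to 3.01% in the genome. GAGGAA was found in 38.7 and 37.6% (39.3% in the genome) and AGATAA in 35.8 and 22.3% (30% in the genome), and GGAA occurs in 99.3% of windows and so separates nothing.

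**Figure D5:**
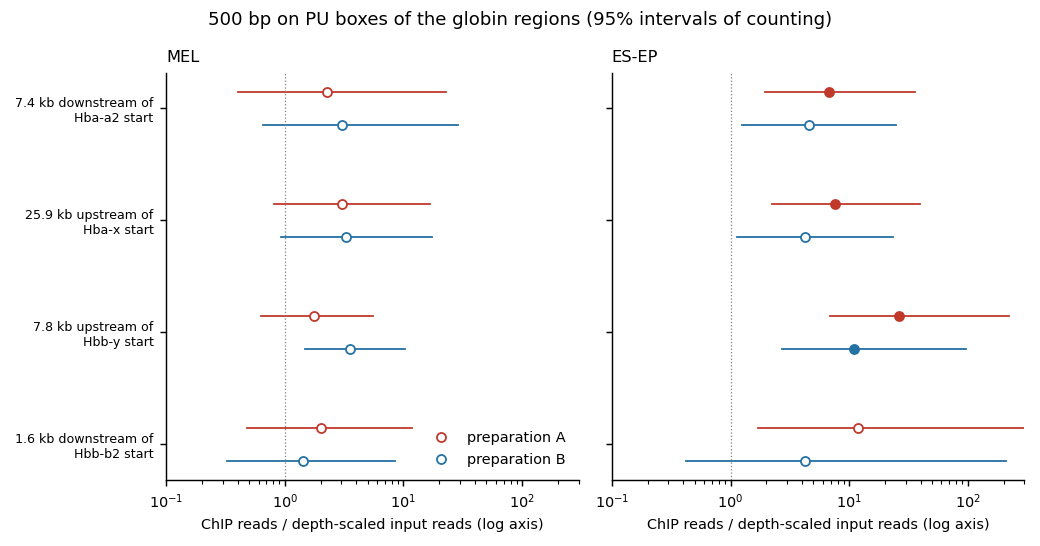
Ratio of ChIP to depth-scaled input reads (log axis) in 500 bp on 4 of the 5 PU boxes of the regions with 20 or more ChIP reads over the 4 preparations (left panel MEL, right panel ES-EP), with 95% exact intervals of counting. Filled points passed the exact binomial test over all PU boxes, HS2 in both ES-EP preparations and 2 α-globin sites in ES-EP A, and intervals that reach the right edge go beyond it.

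PU.1 reads over the globin regions were then compared between MEL cells and ES-EP with limma (voom) over the 4 preparations, n = 2 per cell type. No window of either region passed, 0 of 70 tested in the β-globin region and 0 of 158 in the α-globin region, while 0.0175% of all windows in the genome passed in either direction. At an unadjusted p below 0.05 there were 0 and 6 such windows, and the lowest adjusted p was 0.831 and 0.818. The median difference (log2, MEL minus ES-EP) was 0.30 in the β-globin region and -0.04 in the α-globin region, next to 0.05 over all windows.
At the window of HS2 the difference was -0.39 (SE 0.64, limma adjusted p = 0.902), and at its PU box it was -0.37 (SE 0.63, limma adjusted p = 0.874), where 0.362% of all PU box sites passed. Within its error this allows either direction. As the difference of ChIP minus input, the PU box of HS2 was lower in MEL cells by -2.47 (log2, SE 1.19), with a limma adjusted p of 0.976.
At the Nprl3 window ChIP reads alone gave -0.70 (SE 0.67, limma adjusted p = 0.845), lower in MEL cells, and ChIP minus input gave 1.99 (SE 1.01, limma adjusted p = 0.975), higher in MEL cells. The direction there turned with the subtraction of the input, and without ES-EP A the ChIP reads alone gave -0.08. At the α-globin PU boxes described above the differences were -0.04 and -0.81, each with an SE of 0.62.
Of the 7 globin gene starts 5 held the 10 or more reads that the fit required. None passed, with a lowest limma adjusted p of 0.799 and a median difference of 0.51 next to -0.34 over all starts, and 0.0248% of all 16130 starts passed.

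Over their whole length the regions had ratios near 1 in every preparation but ES-EP A. In the β-globin region MEL preparations A and B held 311 and 381 ChIP reads against 233 in their input, and the ES-EP ones 440 and 349 against 356. The ratio was 1 ± 0.000681 in MEL cells and 1.25 ± 0.31 in ES-EP (mean ± SD, n = 2 preparations). The preparations of a cell type share their input, so this SD leaves out the counting error of the input. The 95% exact intervals of counting were 0.843 to 1.19 in MEL A and 0.848 to 1.18 in MEL B, far wider than the MEL SD. ES-EP A was apart at 1.47 (95% exact interval 1.28 to 1.7), next to 1.03 in ES-EP B (0.89 to 1.2). In the α-globin region 477 and 641 MEL reads stood against 382, and 666 and 656 ES-EP reads against 669, a mean ratio of 0.983 ± 0.0636 for MEL and 1.11 ± 0.107 for ES-EP. On the rest of chromosome 7 they lay between 0.933 and 1.04 and on the rest of chromosome 11 between 0.976 and 1.06.

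As a locus known to bind PU.1, the window of the upstream regulatory element (URE) of Sfpi1 had 23 and 96 reads in MEL A and B against 4, and 33 and 38 in ES-EP A and B against 3. Its ratio was 4.32 in MEL A, 14.7 in MEL B, 13.1 in ES-EP A and 13.4 in ES-EP B, and MEL A did not pass there either (adjusted p = 0.618, exact binomial test). The study's primer list also holds an amplicon at the Sfpi1 promoter. The window of that amplicon had 8 and 7 reads in MEL A and B against 3. In ES-EP A and B it had 7 and 6 reads against 2. With ratios of 2, 1.43, 4.17 and 3.17 in the same order, it passed in no preparation.

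Genes that act on globin transcription or globin chains were read from a list of 19 regulators with an annotated start. Gfi1b, which encodes a transcriptional repressor needed for erythroid and megakaryocytic development, was called in both cell types. Lyl1, which encodes a bHLH factor related to TAL1, was called in both ES-EP preparations. Gfi1b had 29 and 45 reads in MEL A and B against 2, and 49 and 30 in ES-EP A and B against 4, with ratios of 10.9, 13.8, 14.6 and 7.92. With 4000 bp around the start Gfi1b was not called in both MEL preparations. Lyl1 had 105 and 79 reads in ES-EP against 4, ratios of 31.3 and 20.8, and 12 and 58 reads in MEL cells against 1, of which MEL B passed.
In all 1 of 19 regulators was called in both MEL preparations and 2 of 19 in both ES-EP preparations. By single preparation 5.26% were called in MEL A, 42.1% in MEL B, 36.8% in ES-EP A and 10.5% in ES-EP B, beside the shares of all gene starts given above.
Within 500 bp Tcf3, Nfe2 and Mafk, which encode an E protein and the subunits of NF-E2, were called in MEL B and ES-EP A only. Ldb1, Zbtb7a and Eif2ak1 were called in MEL B only, and Zfpm1 and Bach1 in ES-EP A only, without a test of these differences. Gata1, Klf1, Tal1, Lmo2, Mafg, Bcl11a, Sox6, Myb and Cbfa2t3 were called in no preparation within 500 bp. The study merged its duplicate preparations. It reported PU.1 at Klf1 and Myb in both cell types, near the start or inside the gene, and checked this by quantitative PCR. A start not called here, by single preparation and within 500 bp, therefore cannot be read as absence of PU.1. Cbfa2t3, which encodes a corepressor, had 1 read in MEL A and 34 in MEL B against a MEL input of 19, so that MEL A lay below input (ratio 0.0395, adjusted p = 0.000153, exact binomial test), and 9 and 6 reads in ES-EP against 8. With 4000 bp around the start, where 4.04% of all starts were called in MEL A, 23% in MEL B, 19.4% in ES-EP A and 5.08% in ES-EP B, Cbfa2t3 was called in all 4 preparations, Bcl11a in MEL B and both ES-EP preparations, Tal1 and Mafg in MEL B and ES-EP A, Myb in MEL B and Klf1 in ES-EP A, while Gata1, Lmo2 and Sox6 were called in none. At that width Tcf3 and Ldb1 were called in none, Nfe2 in ES-EP A only, and Zfpm1 and Zbtb7a in MEL B and ES-EP A. With 1000 bp around the start Lyl1 was called in both MEL preparations. In 500 bp no preparation had more than 2 reads at Gata1. At Klf1, the activator of the adult β-globin gene, none had more than 8 against 6 and 11 in the inputs.
Of 6 further globin genes (Hbb-bh2, Hbq1b, Hbq1a, Mb, Ngb and Cygb) none was called in both preparations of a cell type. Cygb, a globin of fibroblast-like cells, was called in MEL B alone with 12 reads against 0. This made 16.7% of the 6 genes called in MEL B, near the 16.3% of all gene starts, and so does not set them apart. Of the 17 listed regulators and 5 further globins with enough reads none passed the limma comparison of MEL cells with ES-EP, with a lowest adjusted p of 0.665.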

How the data were processed

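The deposited files list 1 uniquely aligned read per line (position, strand and sequence) with no measured value. The authors aligned them to mm9 with ELAND, allowing up to 2 mismatches, and no unit other than the read itself is deposited. Read sequences matched NCBIM37 at 99.95 to 100% of 2000 reads checked per library. Reads on unplaced and mitochondrial sequence were left out. The 5′ end of each read was shifted by 70 bp (MEL cells) or 65 bp (ES-EP) towards the fragment centre and counted in 500 bp windows. Library letters were taken as preparations and libraries of a preparation were summed. The test of ChIP over input was the exact binomial test, two-sided (scipy 1.17.1), and MEL cells with ES-EP by limma 3.58.1 (voom, R 4.3.3, library sizes from total reads), each adjusted by Benjamini-Hochberg over all windows, starts or PU boxes of the genome. Under the local input setting alone, ChIP over input was tested with a one-sided Poisson test that took the input as fixed. Intervals are Clopper-Pearson, and like the binomial p they cover counting error only. Nothing in the labels says that preparations came from separate cultures, so p-values of limma measure the spread between these preparations. Genes came from GENCODE vM1, 1 start per gene, and 19 of 20 listed regulators had one. The build mm9 is also in the submitters' processing notes. Windows named are those called in any preparation, those with most reads, those of the HS2 amplicon and the stated distances, and PU boxes called in any preparation were added after the values were seen. The members, gene lists and tests were chosen with earlier results of these data known. The scripts were tested on simulated data. The values and sequence of 1 PU box of the α-globin region are not reported here.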

Additional observations from a re-analysis of the deposited data

How the results depend on the processing

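Depth limited these comparisons. With 0 input reads a window needed 18 (MEL A), 19 (MEL B), 11 (ES-EP A) or 13 (ES-EP B) ChIP reads to be called. On another grid or width every window that overlaps a named one was followed. This choice and all alternatives on PU boxes were made after seeing the data, and the cause of each change below was not tested. No setting called a window of the β-globin region in both MEL preparations.

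Windows of the β-globin region called in both ES-EP preparations numbered 0, but 1 with 20 or more reads or 200 bp windows, 2 with local input of 10 kb and its Poisson test (where MEL B also passed at HS2, the next window and the window 19.5 kb upstream), and 0 to 3 with either preparation alone. In the α-globin region the 1 window called in both MEL preparations became 0 with 1 or more reads, 1 read per position, the grid moved, no shift, second libraries, 1000 or 200 bp windows, or limma of MEL ChIP against MEL input (adjusted p = 0.114). On the moved grid the window over the Nprl3 start was called in MEL B (ratio 10.1) and ES-EP A (3.87) and not in MEL A (5.26, adjusted p = 0.202), and the next one, upstream of the gene, was called in none. In ES-EP the α-globin region had 0, but 2 with local input and 0 to 1 with either preparation alone, and its PU boxes 0 to 3. Either preparation alone called 1 to 8 regulators in MEL cells and 2 to 7 in ES-EP, 0 to 1 further globins in MEL cells and 0 to 1 other genes of the regions in ES-EP. Wider starts called 1 member (4000 bp, ES-EP), 2 regulators (1000 bp, MEL cells) and 4 (4000 bp, ES-EP). Between cell types, 1 α-globin window was called with libraries as samples and 1 with 1 or more reads. The whole β-globin ratio in MEL cells became 1.0026 (1 read per position), 1.06 (scaling by chromosome) and 0.999 (first libraries). These values lie inside the exact intervals of counting given above for MEL A and MEL B.

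Some directions turned. The HS2 ratio of MEL A became 1.03 (scaling by chromosome) and 1.34 (second libraries), the next window of MEL B 0 and Nprl3 in ES-EP B 0.894 (first libraries). The log2 difference of MEL minus ES-EP at Nprl3 became 1.99 with ChIP minus input. Leaving out a preparation gave -0.93 to 0.15 for the HS2 window, -1.31 to -0.08 for Nprl3, -0.96 to 0.26 for the PU box of HS2 and -0.44 to 0.37 for the PU box in the Nprl3 intron, the highest values without MEL A or ES-EP A. The correlation of deviations between same-letter preparations over windows was -0.012. Most windows hold few reads, so this value cannot tell whether the letters pair the preparations. With the letter as a replicate block limma gave -0.42 for the HS2 window, -0.38 for its PU box and 0 calls in either region, and over the genome 22 windows higher in MEL and 7 higher in ES-EP, against 148 and 74 without it.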
